A study of Rattus norvegicus with 448 samples.

Results

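Albumin (Alb, ENSRNOG00000002911), transthyretin (Ttr, ENSRNOG00000016275) and apolipoprotein E (Apoe, ENSRNOG00000018454) are the 3 genes of 16796 that were chosen by the highest mean FPKM, the deposited level per kilobase of gene, in rat liver. Their levels, their rank and their order are therefore a description with no test. The study sequenced liver RNA of outbred rats aged 17 weeks as 37 bp paired-end reads from snap-frozen tissue, in order to link genetic influences on expression with metabolic traits. All libraries form 1 group of liver tissue, with no genotype, treatment, diet or sex in the labels, so no conditions are compared. Of the libraries in the labels, 430 were matched to a column by their identifier, and 18 are not analysed here. The identifier of a matched library is labelled as common with an adipose tissue sample. The labels do not say that each library is a separate animal, so the spread between libraries may in part be technical.

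These genes encode secreted proteins that the liver makes in bulk. Albumin is the main protein of blood plasma, holds water in the circulation and carries fatty acids, bilirubin and many drugs. Transthyretin carries thyroid hormone and, bound to retinol-binding protein, vitamin A. Apolipoprotein E sits on lipoprotein particles and is the ligand by which the liver takes remnants up through receptors of the low-density lipoprotein receptor family. Hepatocytes make all 3, and macrophages also make apolipoprotein E. In whole tissue, fewer cells of a type and less RNA per cell cannot be told apart. The table gives gene IDs without names and 0 of the 16796 IDs could be paired with a symbol, so the labelled tissue could not be checked against liver markers. The names of these 3 genes came with the list of members.

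The promoter sequences are shown so that their letters can be compared, and any part in the shared movement described further on was not tested. They are RefSeq sequences of the build GRCr8, each 120 bases that end just before an annotated transcription start, written 5′ to 3′ on the gene's strand. Capitals mark matches, on either strand, to 9 short motifs searched as literal letters: the TATA box as TATAAA, its variants TATATT and also TATAAT, the box named CCAAT, part of an HNF1 site as GTTAAT, FOXA sites as TGTTTAC or else as TGTTGAC, the GC box as GGGCGG and a variant of the C/EBP site as TTGCAAA.
Alb, chr14:17906980-17907099, minus strand: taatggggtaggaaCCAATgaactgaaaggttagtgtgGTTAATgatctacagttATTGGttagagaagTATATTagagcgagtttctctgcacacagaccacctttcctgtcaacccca
Ttr, chr18:12218638-12218757, plus strand: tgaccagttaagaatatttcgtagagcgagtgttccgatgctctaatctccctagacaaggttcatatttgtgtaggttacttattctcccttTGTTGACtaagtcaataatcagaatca
Apoe, chr1:88484700-88484819, minus strand: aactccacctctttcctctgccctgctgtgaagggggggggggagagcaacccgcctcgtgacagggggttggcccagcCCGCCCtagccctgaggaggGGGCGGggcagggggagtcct

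The printed promoters shared no matched motif. The Alb sequence held a CCAAT box on each strand, with first bases at -106 and -65, the HNF1 letters at -82 and the TATA variant TATATT at -51, counted from the start site with the last base before it as -1. The Ttr sequence held 1 FOXA match, TGTTGAC, at -27. The Apoe sequence, from the second of 3 annotated starts and shown because its matches lie just before the start, held GC boxes at -41 and -21, on opposite strands.

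Some of these letters are common in promoters and some are not. In the 33469 RefSeq windows of 300 bases, from 250 before to 50 after a start, a CCAAT match on either strand occurred in 37.5%, GGGCGG in 33.1%, TATATT in 10.5%, GTTAAT in 7.45% and TGTTGAC in 2.62%. Past the printed stretch, the full window of Ttr held a CCAAT match with its first base at 16. That of this Apoe start held one at 3, with the start base as 0. Each of the 3 windows thus had this common motif. The Apoe window also held the TATA variant TATAAT, which occurred in 8.17% of all windows. Its first base, at -1, is the last printed one, so this match is not in capitals. Over the full windows the GC content was 40.67% for Alb, 43.67% for Ttr and 63.67% for this Apoe start, against a median of 51.67%. The other Apoe starts had 52.67% with no match, and 59.67% with the same 4 matches as the second start, whose window overlaps it. A match is a description of letters, and no binding was measured.

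The deposited values were whole multiples of 1 step per gene and library, so whole read counts could be recovered for 99.989% of values. This share is over genes with a recovered length, and values of 0 count as whole. The length was itself chosen so that most values of a gene came out whole. The median library had 24581274 recovered reads, the middle 50% of libraries lay between 19706882 and 28660442, and the extremes were 186324 and 61309221. In 25 libraries the reads fell short of 10000000, and in 3 of these short of 1000000. Libraries had 7108 to 16613 genes above 0. The 22 libraries with the fewest such genes, which had 186324 to 9287087 reads, were left out in an alternative.

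Albumin had the highest level by a wide margin. Its mean was 12807.5 ± 5909.1 FPKM (SD, n = 430), with a lowest value of 5020.66, a median of 11587.3 and a highest of 67592.8. It ranked first in all but 3 of 430 libraries and was never below rank 3. Its share of recovered reads had a median of 2.44% and ran from 1.18% to 10.7%.

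Transthyretin came next at 6340.65 ± 4498.58 FPKM, with a lowest value of 2129.24, a median of 5063.52 and a highest of 43139.3. It was among the 3 highest genes in 80.9% of libraries, and in every library among the 10 highest. Because its transcript is short, at a recovered length of 701 bases against 2069 for Alb and 1555 for Apoe, it took fewer reads than Apoe: a median of 0.361% against 0.706% of a library.

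Apolipoprotein E had 5388.17 ± 3437.81 FPKM, with a lowest value of 1948.94, a median of 4459.08 and a highest of 33716.2. It was among the 3 highest genes in 24.4% of libraries and at rank 15 at worst. Its place after Ttr by the mean was narrow, since the gene ranked next, just outside the rule, had 5313.37 FPKM. Apoe was 4th by the median, and 4th by the mean without the 22 libraries with the fewest genes above 0, whereas Alb stayed 1st and Ttr 2nd in both. Without those libraries the means were 11818.7 ± 2750.45 FPKM for Alb, 5482.5 ± 1827.7 for Ttr and 4726.38 ± 1405.12 for Apoe (SD).

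The order of the 3 within a library was steadier than their levels, which overlapped. Alb exceeded Apoe in all 430 libraries and Ttr in all but 3. Ttr exceeded Apoe in 95.6% and lay below it in 19 libraries. Within libraries the median ratio of FPKM was 2.24 for Alb to Ttr (0.823 to 3.74), 2.55 for Alb to Apoe (1.06 to 4.37) and 1.15 for Ttr to Apoe (0.785 to 1.96). Together the 3 genes took 4.07% ± 1.15 of a library's FPKM (SD, n = 430), and from 1.69% to 13.5% of its reads with a median of 3.49%.

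The libraries at the ends of these ranges were also at the ends of depth. LSW_245, the deepest at 61309221 reads, had the lowest level of all 3 genes. LSW_166, with 246874 reads, had the highest Alb level, and LSW_271, with 977961 reads, the highest Ttr and Apoe levels. In LSW_166 Alb took 26494 reads, a share of 10.7% with an exact 95% binomial interval of 10.6% to 10.9%. The interval covers counting error only, and other sources of error in a library of so few reads were not measured.

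The 3 libraries in which Ttr ranked above Alb also had few reads. LSW_225, with 1950287 reads, had 27318.7 FPKM of Alb and 33177.6 of Ttr. LSW_344, with 1955642 reads, had 26773 and 29300.7. LSW_387, with 6043398 reads, had 22869 and 25386.8. Alb was thus above its upper quartile of 13907.3 FPKM in each of them, and the order was turned by Ttr being higher still.

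The clearest pattern in the 3 genes was a fall of their level with the number of reads in the library. Alb went from a median of 15740.5 FPKM in the quartile group of libraries with the fewest reads to 12435.2, 10767.1 and 9269.45 in the next 3 quartile groups. Ttr went from 8257.75 to 5609.23, 4747.78 and 3982.85 FPKM over the same groups. Apoe went from 6801.27 to 4842.27, 4202.58 and 3574.86 FPKM. The lowest group exceeded the highest by 1.70-fold for Alb, 2.07-fold for Ttr and 1.90-fold for Apoe.

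In the shallowest group the lowest Alb value was 12021.7 FPKM, and in the deepest group the highest was 11357.8. The same 2 values were 5086.89 and 5261.63 for Ttr, and 3987.87 and 4837.53 for Apoe. How many of all genes tested had end groups that did not overlap was not counted, so nothing particular to Alb is shown.

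**Figure D1:**
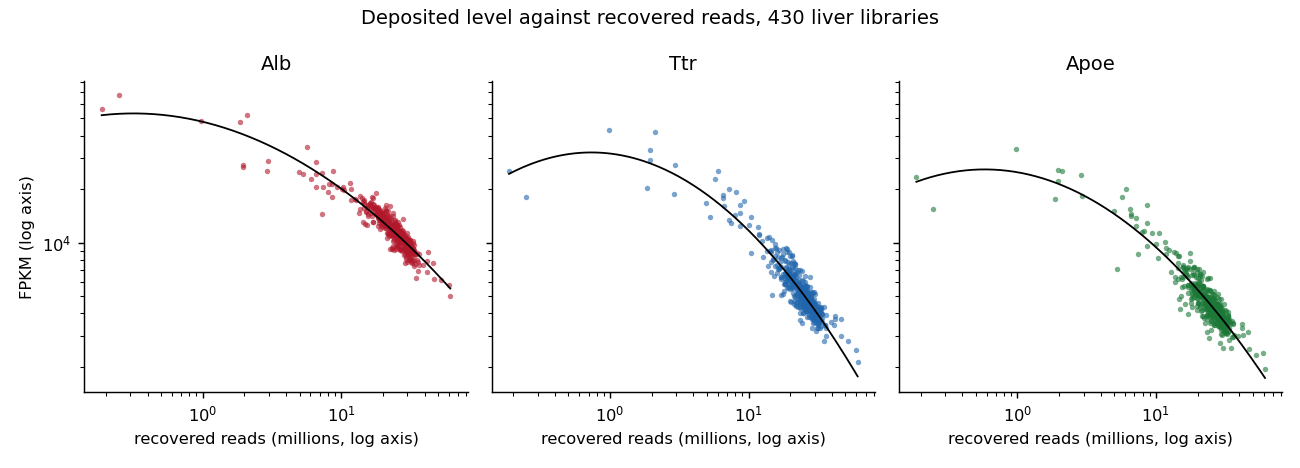
FPKM of Alb, Ttr and Apoe (log axis) against recovered reads in units of 1000000 (log axis), 1 point for each of 430 libraries, with a curve of degree 2 in log2 reads. Levels fall to the right in all 3 panels, and the libraries under 1000000 reads lie at or near the top for Alb.

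Over all 430 libraries the correlation of log2(FPKM + 1) with log10 recovered reads was -0.902 for Alb, -0.871 for Ttr and -0.873 for Apoe, with Spearman's rho of -0.919, -0.887 and -0.865. Each had an adjusted p of 1.33e-05 by a two-sided permutation test with 100000 resamples, from the smallest p it can give, over a family of 12 relations. Without the 2 libraries farthest from the median depth, r was -0.908, -0.928 and -0.920. When the libraries were cut into 4 blocks in order of title number, r lay between -0.930 and -0.905 for Alb, between -0.940 and -0.849 for Ttr and between -0.927 and -0.860 for Apoe. Neighbouring libraries may not be independent, so these and the following p-values may be too small.

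Among the 12234 genes tested, which reached 1 FPKM in 10% of libraries or more, these r values were the lowest, the third lowest and the second lowest for Alb, Ttr and Apoe. The next gene had -0.846, and the median of all genes tested was 0.205. By the slope per doubling of reads the members were less extreme, at percentiles 2.28 for Alb, 0.866 for Ttr and 1.13 for Apoe from the lowest. For the genes ranked 4 to 10 by mean FPKM, r ran from -0.831 to -0.068. These r values are over the same libraries and share their depth. The choice of members by the mean over all libraries favours genes that are high in shallow ones. Apoe, which was 4th without the 22 libraries with the fewest genes above 0 and 4th near the median reads, entered only through them, so its fall and its rank in r are in part fixed by the choice. Without those 22 libraries r was -0.904 for Alb, -0.886 for Ttr and -0.862 for Apoe, and near the median reads -0.739, -0.681 and -0.626.

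By limma's slope on log2 reads, each doubling of reads went with a change of -0.50 ± 0.01 (SE) in log2 level for Alb, -0.66 ± 0.02 for Ttr and -0.61 ± 0.02 for Apoe. The limma adjusted p was 1.65e-153, 7.16e-131 and 7.08e-132. For Apoe the p-values on reads and on genes above 0, here and elsewhere, are no support, since its choice rests on shallow libraries. By these slopes the level of Alb, Ttr and Apoe fell by 29.4%, 36.7% and 34.6% with a doubling. In the same fit 29.1% of the genes tested fell with depth (3559) and 7129 rose, with a median slope of 0.08.

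The slope depended on the scaling of libraries and on which libraries were used, while its direction did not under the alternatives tried. With libraries rescaled to a common upper quartile it was -0.31, -0.47 and -0.42, 12.75% of genes fell (1560) and 9587 rose, and the median slope of all genes went from 0.08 to 0.19. Without the 22 libraries with the fewest genes above 0 it was -0.75, -0.95 and -0.84. In the 56.7% of libraries within 20% of the median reads it was -0.88, -1.08 and -0.90.

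The fall was also present in the share of recovered reads, which does not use the deposited scaling. From the shallowest to the deepest quartile group the median share went from 3.16% to 2.01% for Alb, from 0.568% to 0.293% for Ttr and from 1.02% to 0.582% for Apoe. The median count of Alb reads rose over the same groups only from 495843 to 635322, that of Ttr from 82545.5 to 93089.5 and that of Apoe from 152189 to 182851. On log axes the gene's reads rose with total reads by a slope of 0.615 for Alb, 0.457 for Ttr and 0.504 for Apoe, where a slope of 1 would keep the share constant. Without the 22 libraries with the fewest genes above 0 these slopes were 0.382, 0.186 and 0.296. Total reads are also the divisor of a share. The scaling of FPKM does not use the library total but is derived from the same reads. A part of these relations can therefore be built in.

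The number of reads per base of the gene moved with the slope. Alb had on average 273.4 reads per base of its recovered length in a library, Ttr 126.1 and Apoe 109.5, and only 3 other genes had 100 or more. The median slope of genes was 0.10 under 1 read per base (10285 genes), -0.03 from 1 to 5 (1461 genes), -0.15 from 5 to 20, -0.11 from 20 to 50 (62 genes), -0.30 from 50 to 100 (21 genes) and -0.36 in the 3 others at 100 or more. Picard is named in the submitters' processing notes without a role, and the part that any processing step has in the fall was not tested.

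**Figure D2:**
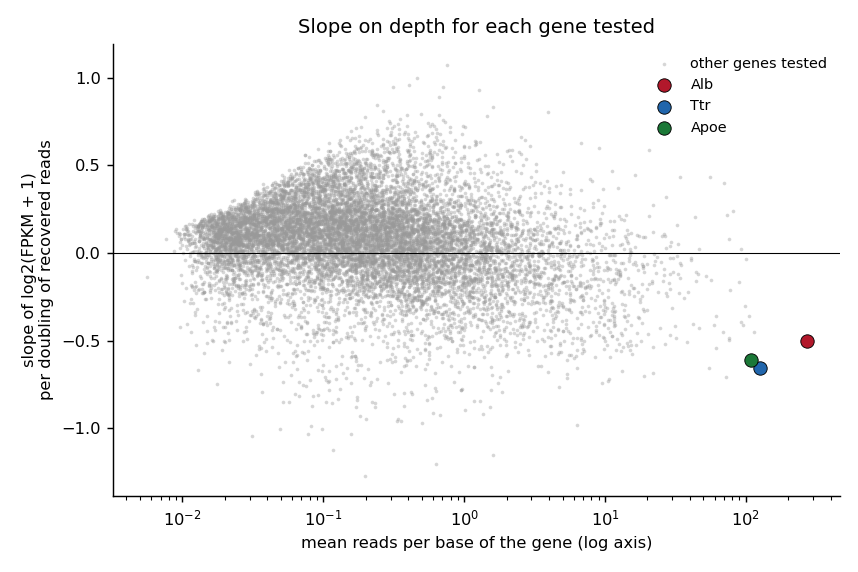
Slope of log2(FPKM + 1) per doubling of recovered reads for each of the 12234 genes tested (grey points) against the mean reads per base of the gene (log axis). Alb, Ttr and Apoe lie at the right at slopes of -0.50, -0.66 and -0.61, where most of the few genes have slopes below 0.

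The 3 genes had lower levels in libraries with many genes above 0 as well. Their r with the number of genes above 0 was -0.864 for Alb, -0.863 for Ttr and -0.866 for Apoe (adjusted p = 1.33e-05 each, permutation test). Without the 2 libraries farthest from the median it was -0.871, -0.934 and -0.926. Over the blocks by title number it ran from -0.943 to -0.838. The number of genes above 0 itself depends on depth.

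Over the whole set the 3 genes varied more than a typical gene. The SD of log2(FPKM + 1) over 430 libraries was 0.452 for Alb, 0.615 for Ttr and 0.570 for Apoe, against a median of 0.377 over all genes tested. This placed them above 65.2%, 84.3% and 80.05% of genes. Since the choice by the mean over all libraries favours genes that are high in shallow ones, these places are in part fixed by it. Without the 22 libraries with the fewest genes above 0 the SD was 0.330 for Alb, 0.425 for Ttr and 0.386 for Apoe. The SDs of all genes were not computed for that set. Of the 50 other genes nearest to them in level, which had a median SD of 0.400, 19 exceeded Alb, 4 exceeded Ttr and 9 exceeded Apoe. The median, lowest and highest SD of these 50 were the same for each member. Past the members the highest mean was 5313.37 FPKM, against 12807.5 for Alb, so these genes were not matched to Alb in level.

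After the depth curve of degree 2 was removed, the same genes had a lower SD than most of the genes tested. The curve held 88.2% of the variance of Alb, 87.95% of that of Ttr and 86.1% of that of Apoe. The remaining SD was 0.155 for Alb, at percentile 0.866 of genes treated in the same way. It was 0.214 and 0.213 for Ttr and Apoe, at percentiles 10.2 and 9.83, against a median of 0.328. Most genes tested (10285) had under 1 read per base. The genes nearest in level were not compared after removal, so a low SD for their level is not shown. In the libraries near the median reads Alb lay between 7721.35 and 16346 FPKM, with a coefficient of variation of 13.8%. For Ttr it was 19.5% and for Apoe 17.4%, compared with 46.1%, 70.9% and 63.8% over all libraries.

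**Figure D3:**
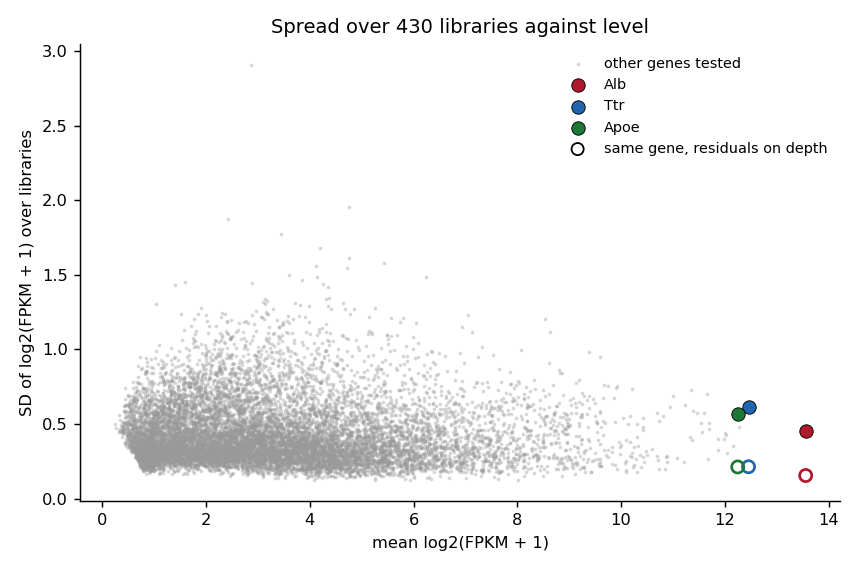
SD of log2(FPKM + 1) over 430 libraries against the mean of log2(FPKM + 1), for all genes tested (grey) and for Alb, Ttr and Apoe (filled circles), with the SD of the same 3 genes after removal of the depth curve (open circles). The open circles lie at 0.155, 0.214 and 0.213, below the filled ones at 0.452, 0.615 and 0.570.

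The 3 genes moved together over libraries. In the levels as deposited Ttr and Apoe were the closest pair, whereas with 5 components removed it was Alb and Ttr, as given further on; the difference between pairs was not tested. Pearson's r of log2(FPKM + 1) was 0.926 for Alb with Ttr, 0.912 for Alb with Apoe and 0.977 for Ttr with Apoe (rho 0.932, 0.903 and 0.958). The permutation test gave an adjusted p of 1.33e-05 for each. The choice of Apoe rests on shallow libraries, where Alb and Ttr were high as well. For the pairs with Apoe the p-values, here and elsewhere, are therefore no support. Leaving out the 2 libraries farthest from the median gave 0.932, 0.913 and 0.975, and the lowest r in any block was 0.899, 0.878 and 0.965.

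Much of what they shared went along with depth. With the depth curve removed, r was 0.416 for Alb with Ttr, 0.327 for Alb with Apoe and 0.830 for Ttr with Apoe (adjusted p = 2e-05 each, permutation test). In the 4 blocks these residuals had r of 0.364 to 0.494, 0.213 to 0.472 and 0.772 to 0.919. In the libraries near the median reads r was 0.806, 0.736 and 0.912, where depth still varied by up to 20% either way.

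**Figure D4:**
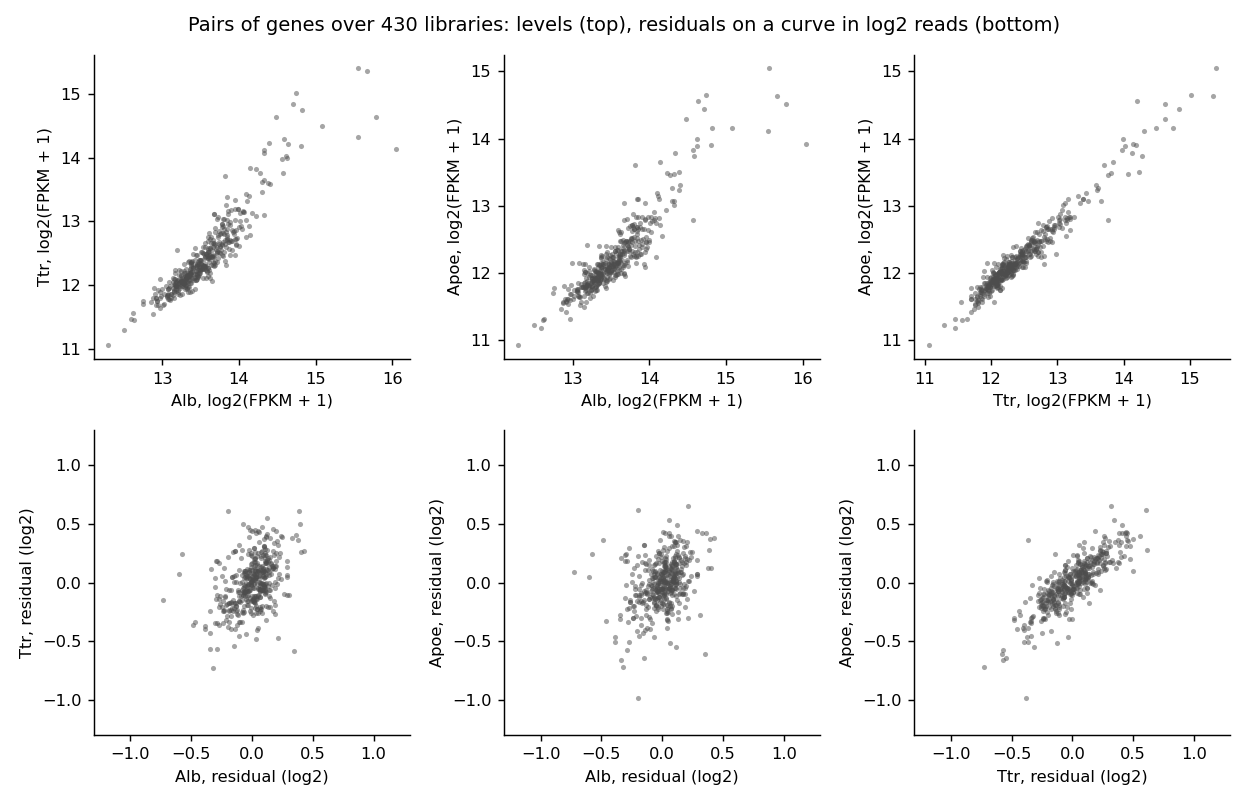
Each pair of Alb, Ttr and Apoe over 430 libraries: log2(FPKM + 1) in the top row, and residuals on the depth curve (log2) in the bottom row. The clouds in the top row are narrow (r = 0.926, 0.912 and 0.977), and in the bottom row only Ttr with Apoe stays narrow (r = 0.830).

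Ratios within a library are free of its scaling. The SD of the log2 ratio was 0.134 for Ttr to Apoe, 0.260 for Alb to Ttr and 0.244 for Alb to Apoe. The median ratio of Alb to Ttr was 1.93 in the shallowest quartile group of libraries and 2.24, 2.26 and 2.30 in the others. That of Ttr to Apoe went from 1.21 to 1.17, 1.13 and 1.10. That of Alb to Apoe was 2.38 in the shallowest group and 2.59, 2.59 and 2.57 in the others. By these medians Ttr was higher relative to both other genes in the shallowest group. Single libraries differed: LSW_166, with 246874 reads, had the highest ratio of Alb to Ttr, and LSW_226, with the fewest reads, had 56386.6 FPKM of Alb and 25345.2 of Ttr, a ratio near the overall median.

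In the levels as deposited, the genes whose pattern over libraries was most like that of the members were themselves of high level. Among 5189 genes with a mean of at least 10 FPKM, Alb ranked Ttr 3rd and Apoe 5th by Pearson's r, Ttr ranked Apoe 1st and Alb 11th, and Apoe ranked Ttr 2nd and Alb 11th. The most like Alb was ENSRNOG00000030625 (r = 0.958), the 5th gene by mean FPKM, and the most like Apoe was ENSRNOG00000006889 (r = 0.979, mean 3540.04 FPKM). These IDs, and the opposed ones, were chosen after their values were seen. The 8 genes most like Ttr and the 8 most like Apoe had 6 in common, and those of Alb had 4 in common with each.

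The breadth of likeness differed between Alb and the other two. At r of 0.8 or more there were 0.347% of genes for Alb, 6.46% for Ttr and 6.19% for Apoe. At -0.8 or less there were 0 genes for Alb, 67 for Ttr and 61 for Apoe. The most opposed gene was ENSRNOG00000013948 for both Alb (-0.705) and Apoe (-0.858), and ENSRNOG00000004909 for Ttr (-0.861). By Spearman's rho the genes at 0.8 or more were 0.289%, 1.23% and 1.58%, fewer for Ttr and Apoe than by Pearson's r, and at -0.8 or less there were 0 genes for Alb and Ttr and 1 for Apoe. With depth removed, 0.0385%, 0.116% and 0.713% of genes had r of 0.8 or more and 0 had -0.8 or less for each of the 3. The breadth of likeness of Ttr and Apoe was thus present in the levels as deposited and by Pearson's r.

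The largest shared pattern of the table, the first principal component of the other genes, held 45.7% of the variance over libraries. Oriented to rise with reads, it had r of -0.628 with Alb, -0.832 with Ttr and -0.822 with Apoe, and 0.599 with log2 reads. With 5 such components removed, r between the members was still 0.944 for Alb with Ttr, 0.908 for Alb with Apoe and 0.913 for Ttr with Apoe, so the order of the pairs turned. With depth removed, by contrast, Ttr ranked Apoe 3rd but Alb 1458th of the 5189 genes. The most like Alb was then again ENSRNOG00000030625 (0.825), and the most like both Ttr (0.868) and Apoe (0.882) was ENSRNOG00000006889. Of the 8 genes most like each member, 2 for Alb, 4 for Ttr and 1 for Apoe were also among the 8 before depth was removed. The 8 most like Apoe then had a median of 232.1 FPKM and ran down to 48.8, as did those of Ttr, and those of Alb ran down to 173.9.

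Of the 430 libraries, 44.9% had the first part of their identifier in common with at least 1 other, in 92 sets (83 of 2 and 9 of 3 libraries). The labels do not say what this part means. Libraries that shared it resembled each other in all 3 genes. Any 2 of them differed by a median of 1.17-fold in Alb, 1.22-fold in Ttr and 1.198-fold in Apoe, whereas libraries with different first parts differed by 1.27-fold, 1.35-fold and 1.31-fold.

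The intraclass correlation, the share of variance between sets, was 0.259 for Alb (adjusted p = 0.0117), 0.303 for Ttr (0.00294) and 0.252 for Apoe (0.0105) by limma's F test with a spline of the title number. This was not particular to them. In the same test 59.8% of all genes tested passed, with a median of 0.211, and the members stood at percentiles 65.9, 78.2 and 63.5.

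Depth moved with the identifiers as well. Recovered reads differed by a median of 1.18-fold between libraries that shared the first part and by 1.305-fold between those that did not, and their log2 had an intraclass correlation of 0.232. With depth as a covariate the intraclass correlation was 0.223 for Alb, 0.135 for Ttr and 0.105 for Apoe, and none passed (adjusted p = 0.112, 0.185 and 0.253, limma). Without the 22 libraries with the fewest genes above 0, Alb passed at 0.251 (adjusted p = 0.0351), while Ttr at 0.149 (0.144) and Apoe at 0.121 (0.206) did not, by limma. The share of genes called went from 59.8% to 27.4% without those libraries and to 30.2% with depth as a covariate.

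**Figure D5:**
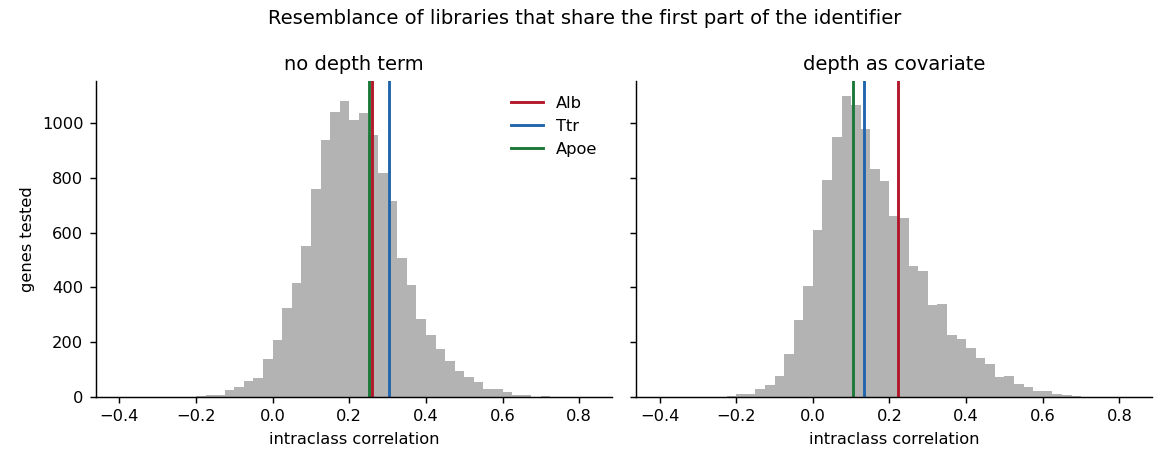
Intraclass correlation within sets of libraries with a common first part of the identifier, for all 12234 genes tested (grey histogram, number of genes) and for Alb, Ttr and Apoe (lines), without a depth term on the left and with depth as a covariate on the right. The lines lie at 0.259, 0.303 and 0.252 on the left and at 0.223, 0.135 and 0.105 on the right, within the bulk of all genes.

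No trend over the title number, the only order in the labels, was found for the members as deposited. Pearson's r was -0.037 for Alb, -0.028 for Ttr and -0.020 for Apoe (adjusted p = 0.527, 0.609 and 0.686, permutation test), and the limma slopes per 100 title numbers were -0.013, -0.014 and -0.0086 in log2 level (adjusted p = 0.739, 0.815 and 0.884). In that fit 4.29% of genes rose and 3.89% fell. Within the 4 blocks r differed in sign, with values for Alb of -0.058, 0.360, -0.095 and 0.176.

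The result changed with the treatment of depth. With depth as a covariate all 3 genes rose, by 0.017, 0.030 and 0.031 per 100 title numbers (limma adjusted p = 0.0144, 0.00145 and 0.00111), with 1984 of the genes tested rising and 2365 falling. With 5 components as covariates the slopes were -0.030, -0.036 and -0.032, and each passed as a fall (adjusted p = 0.0297, 0.00422 and 0.00439, limma), as did 11.2% of the genes tested, while 13.9% rose. No direction over the title number can therefore be given for these genes.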

How the data were processed

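Liver RNA-seq was analysed from 1 deposited gene table. Per the submitters' processing notes the tools were STAR, Picard, featureCounts and DESeq2, with no version or role stated. Neither the build nor the annotation or strand setting is given in the sources used here. The authors deposited FPKM, scaled by a median-ratio size factor rather than by the library total, as read from the values, since the file header has no unit. Libraries were joined to columns by identifier, and 1 further column was not used. Reads were recovered as whole multiples of each gene's step (tolerance 0.001). A length unit of 0.5 bases was used, because the mean library size implied 0.500045.

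Tests used log2(FPKM + 1) of the 12234 genes that reached 1 FPKM in 10% of libraries or more: limma 3.58.1 in R 4.3.3, with Benjamini-Hochberg adjustment over all genes, a threshold of 0.05 and a natural spline of 4 degrees of freedom in the identifier test, and permutation tests with 100000 resamples, adjusted over 12 relations (6 with depth removed). The depth curve had degree 2 in log2 recovered reads. Components were computed without the members. The recovery of reads and the fits on identifiers and title number were run on simulated data. In those data no gene's level depended on depth, so they do not test the results where depth matters. RefSeq sequences came from GRCr8.

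The members and lists were chosen with earlier results of these data known. Alternatives were pseudocounts of 5 and 0.5, upper quartile rescaling, other filters, 5 components, normal scores, no spline, the median, scaling to the FPKM total, Spearman's rho and fewer libraries. Alternatives with a depth term, libraries near the median reads, shares of reads, limma-voom on reads and the slope on reads were added after seeing the data. The rule for named genes took the members, the genes next in rank and the most alike or opposed genes with a symbol. Since no ID had a symbol, the 192 symbols of the gene lists and the cell type markers gave no result, and single IDs were chosen after their values were seen.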

Additional observations from a re-analysis of the deposited data

How the results depend on the processing

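For 35 results, 74.4% of the values under alternatives kept their direction, their side of the threshold or their size, by wide rules. A mean counted as kept if it moved by less than its SD over libraries. An r counted as kept if its sign and its side of the threshold held. The r of Alb with Apoe thus counted as kept at 0.327 with depth removed, against 0.912. Pseudocounts of 5 and 0.5 could hardly move levels this high. The share is therefore no measure of how steady the values were. Scaled to a common FPKM total of the library, the means were 21553.5 for Alb, 10295.7 for Ttr and 8823.05 for Apoe. The SD of log2 level was, for Alb, Ttr and Apoe in turn, 0.348, 0.504 and 0.459 with upper quartile rescaling, 0.330, 0.425 and 0.386 when the 22 libraries with fewest genes above 0 were left out, 0.294, 0.275 and 0.244 without 5 components, 0.356, 0.522 and 0.478 as shares of recovered reads, 0.155, 0.214 and 0.213 with depth removed, and 0.199, 0.267 and 0.241 near the median reads. The pairs of members and their relations to depth passed in each alternative run. For Apoe and its pairs this is no support, since its choice rests on shallow libraries.

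The relation to the title number passed without the 22 libraries, at r of -0.098, -0.118 and -0.0998 (adjusted p = 0.0483, 0.0201 and 0.0483, permutation test). By limma the slopes in that setting did not pass (adjusted p = 0.194, 0.0971 and 0.182). The r with the title number turned with depth removed, to 0.143, 0.182 and 0.186 (0.00314, 0.000228 and 0.000195, permutation test). Near the median reads it turned to 0.072, 0.067 and 0.053 (0.319, 0.327 and 0.407). The limma slopes per 100 title numbers were -0.030, -0.036 and -0.032 with 5 components, 0.017, 0.030 and 0.031 with depth, and 0.011, 0.014 and 0.0099 near the median reads, where none passed. Of all genes tested, 6.54% rose over the title number without the 22 libraries, 13.9% with components, 16.2% with depth and 8.59% near the median reads. Under the same settings 5.95%, 11.2%, 19.3% and 11.5% fell, and 2.33% with upper quartile rescaling.

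The intraclass correlation no longer passed for Ttr (0.149) and Apoe (0.121) without the 22 libraries, for Apoe with 5 components (0.135), or for Alb, Ttr and Apoe with depth (0.223, 0.135 and 0.105). Near the median reads, with 71 libraries in 34 sets, it was 0.090, 0.063 and -0.099. Over alternatives the limma adjusted p ran up to 0.581, 0.520 and 0.779. The share of genes called was 27.4% without the 22 libraries, 91.3% with normal scores, 30.2% with depth and 8.01% near the median reads. On log2 reads, 33.7% of genes rose and 18.8% fell near the median reads, and 12.75% fell with upper quartile rescaling. The tests with fewer libraries or genes could call fewer by construction; otherwise the cause was not tested. The gene lists and markers were not run.

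Counting error of the members was at most 2.06% of a value if reads are taken as independent molecules. Amplification and library quality were not measured. Recovered reads are a reconstruction.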
